A study of Mus musculus with 6 samples.

Results

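The genes described here are Trp53, which encodes the transcription factor p53, its inhibitors Mdm2 and Mdm4, and 7 genes that p53 is known to activate: Cdkn1a, Ccng1, Zmat3, Phlda3, Eda2r, Trp53inp1 and Aen. They were chosen by name, with earlier results of these data known. The p53 targets that act mainly in apoptosis and the BTG genes were left to separate lists. All 10 were among the 31017 genes of the count table and all 10 passed the filter on low counts that left 14268 genes for testing. Mouse Th17 cells, helper T cells that secrete interleukin 17, had been differentiated in culture, and RNA was sequenced from 3 control cultures, whose genotype is given as WT, and 3 cultures labelled RTF1-deficient, whose genotype is given as KO. RTF1 accompanies RNA polymerase II along genes and promotes ubiquitination of histone H2B. The genotype is stated as WT or KO alone, with no allele, deleting Cre, strain or age. No label states whether each library of a group came from a separate animal, so p-values measure the spread between these libraries.

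p53 is held at a low protein level in resting cells because Mdm2, a ubiquitin ligase, marks it for degradation and Mdm4, its relative, covers its activation domain. Stress releases p53, which then activates genes for cell cycle arrest, repair and death, and also Mdm2, so that the pathway limits itself. Regulation of p53 is largely at the protein level, which RNA counts do not measure. In T cells p53 is known for restraining proliferation after activation of the antigen receptor.

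The sequence that p53 binds is a pair of decamers, and RefSeq promoter windows (GRCm38.p6, 250 bases before to 50 after a gene start) were searched for it on both strands. The p53 response element was searched as 2 adjoining decamers with no base between them, the central C and G of each kept. Windows were given for 8 of the 10 genes, 11 windows in all, since some genes have several starts; Zmat3 and Trp53inp1 had no entry. At most 2 mismatches were found in windows of Cdkn1a and Ccng1, each with 1 mismatch, against 0.326% of all 32851 windows (0.067% with at most 1 mismatch). These stretches are shown because both genes rose in KO (below); capitals mark the match. The Cdkn1a stretch lies at chr17:29090868-29090972, plus strand, with the match ending 31 bases before the upstream of 2 RefSeq starts. The window of the downstream start (chr17:29093769) held no match. The Ccng1 stretch lies at chr11:40755437-40755536, minus strand, with the match ending 175 bases before the RefSeq start.
Cdkn1a: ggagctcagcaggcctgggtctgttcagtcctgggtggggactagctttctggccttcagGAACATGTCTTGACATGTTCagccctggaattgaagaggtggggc
Ccng1: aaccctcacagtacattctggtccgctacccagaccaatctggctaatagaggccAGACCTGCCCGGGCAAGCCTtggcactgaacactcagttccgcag

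With 3 mismatches allowed, which 1.38% of all windows met, the Trp53 window (chr11:69580284-69580303, plus strand) and the windows of Aen (chr7:78895937-78895956, plus strand, within an annotated exon) also held a match. The Mdm2 window held an exact decamer (chr10:117710935-117710944, minus strand) without such a match, and 8.36% of all windows held any exact decamer. Exact decamers also lay in windows of Trp53, Cdkn1a, Ccng1 and Aen. Windows of Mdm4, Phlda3 and Eda2r held neither a match nor an exact decamer. These are letters in a 300-base window and say nothing of binding.
Trp53: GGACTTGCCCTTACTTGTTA
Aen: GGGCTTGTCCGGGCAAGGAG
Mdm2: GAACTTGCCT

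Libraries held 16489813 to 51271226 counts, and the 10 genes together 22981 to 79778 counts in each. Rtf1 itself fell from 91.2 ± 2.84 to 33.9 ± 10.03 CPM (counts scaled by library size and TMM factor; SD, n = 3; log2 fold change −1.42 ± 0.191 as SE; edgeR adjusted p = 0.000755). The KO libraries kept 45.3, 30.4 and 26.2 CPM, on average 37.2% of the control level, from 515 to 1192 counts. Counts are per whole gene and the deleted part is not stated, so its loss was not checked. Across all tested genes 46.1% were called at an edgeR adjusted p under 0.05, 23.2% higher and 22.9% lower in KO, and in 57.9% the groups did not overlap. Y-linked counts were found (11376 in control, 5147 in KO), and Xist almost absent (5 and 1 counts), in replicate 3 of both groups, unlike the other libraries. Replicate 3 thus held male cells and replicates 1 and 2 female cells, so the libraries of a group did not all come from the same animal. Fits that leave out a replicate 3 library also change the sexes compared. The Th17 and T cell markers Cd3e, Cd4, Il17a, Il17f and Il23r were detected in every library; Cd3e was called higher in KO (log2 fold change 0.71), and Cd4 (−0.94), Il17a (−1.65), Il17f (−1.28) and Il23r (−1.35) were called lower. Summed markers of B cells (1.24 to 3.09 CPM in control, 1.74 to 2.62 in KO), of CD8 and NK cells (6.99 to 10.8 and 7.37 to 12.9, with Ncr1 and Klrb1c at 0), of erythroid cells (1.18 to 2.92 and 0.988 to 2.03) and of fibroblasts (0.486 to 0.665 and 0.107 to 0.797, with Col3a1 at 0) were low in both groups. Within these sums Nkg7, a cytotoxic granule gene, was called higher (0.338 ± 0.208 to 2.53 ± 0.690 CPM, 6.75-fold, edgeR adjusted p = 0.00209), and the B cell gene Cd79b was called lower (0.603 ± 0.307 to 0.158 ± 0.0933 CPM, adjusted p = 0.0236). The 6 myeloid markers summed to 2.58 to 5.20 CPM in control and 16.9 to 28.5 in KO, mostly from Cd68, and 2 of them, Cd68 and Csf1r, were called higher. Lyz2, too low to be tested, held 0, 0.0413 and 0.0950 CPM in control and 1.75, 0.294 and 0.407 CPM in KO, without overlap. Cd14 held 0.302 ± 0.172 and 0.821 ± 0.338 CPM (log2 fold change 1.36, edgeR adjusted p = 0.0646), and Itgam and Adgre1 were at or near 0 in every library. The part of these markers in the results below was not tested. In these bulk samples fewer cells of a type and less RNA per cell cannot be told apart.

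Of the 10 genes, 6 rose in KO, 1 fell and 3 did not pass the test. The genes that rose were Trp53inp1, Phlda3, Ccng1, Zmat3, Aen and Cdkn1a, all of them p53 targets, by 1.38 to 3.07 times. Mdm4 fell to 0.707 times the control level. Trp53, Mdm2 and Eda2r did not pass. The shares called higher and lower among all tested genes were 23.2% and 22.9%. The median log2 fold change of the 10 genes was 0.57, against 0.013 over all tested genes. KO libraries lay above every control library for 7 genes, against 29.9% of all tested genes, and below for 1, against 28% of all. Since the genes were chosen with earlier results known, these shares and medians are a description. Leaving out control replicate 1 left 3 genes called higher (Ccng1, Phlda3 and Trp53inp1) and none lower. Without control replicate 3, 2 genes were called lower, Trp53 being the second. The single lower call was also absent without KO replicate 2, without KO replicate 3, without TMM factors (library size only), and with replicates 1 and 2 of both groups alone.

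**Figure D1:**
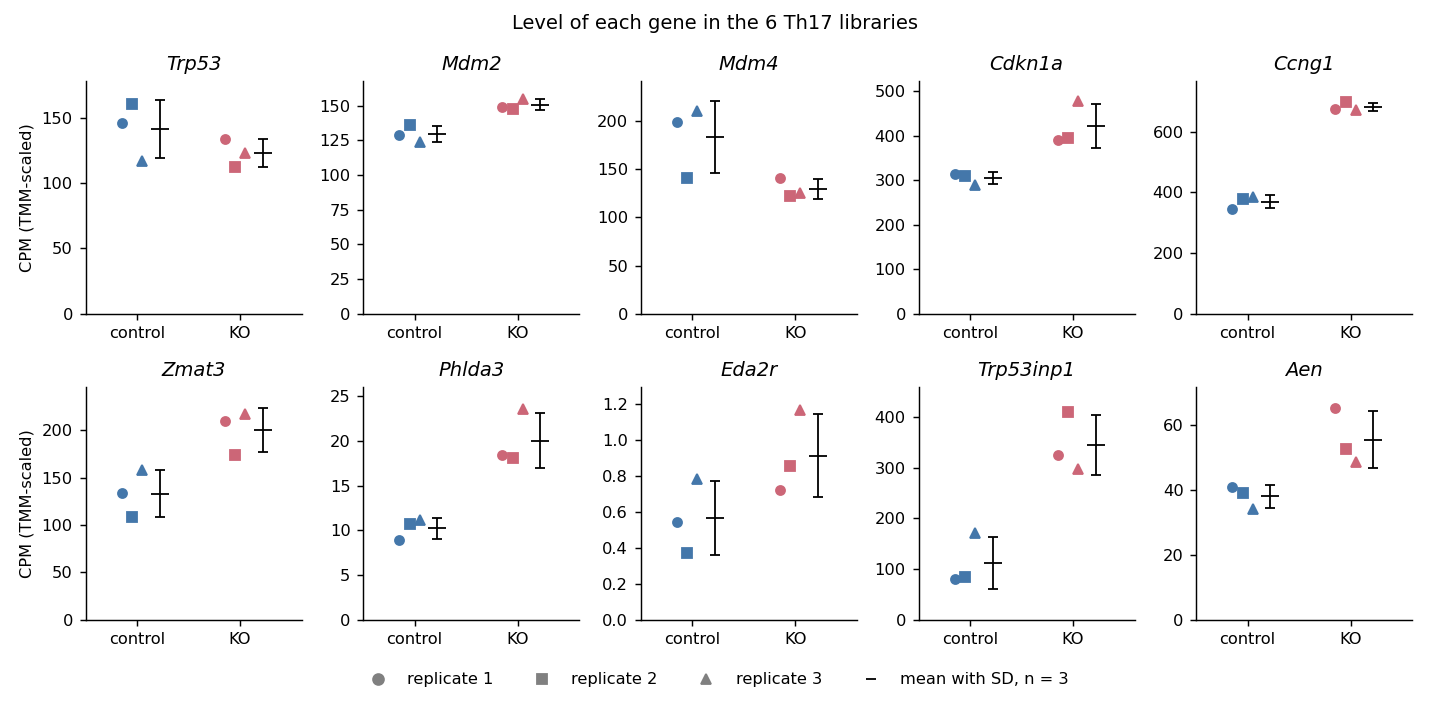
Level of each of the 10 genes as TMM-scaled CPM (y axis, from 0, own scale in each panel) in the 3 control and 3 KO libraries (x axis); symbols mark replicate numbers and bars the mean with SD. All KO libraries lie above all control libraries for Mdm2, Cdkn1a, Ccng1, Zmat3, Phlda3, Trp53inp1 and Aen and below them for Mdm4, while Trp53 and Eda2r overlap.

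Trp53 (chr11:69580359-69591873, plus strand; positions here and below are GENCODE gene models on GRCm38) was not called. Its transcript stood at 146, 161 and 117 CPM in control replicates 1, 2 and 3 and at 134, 112 and 123 CPM in KO replicates 1, 2 and 3. The groups overlapped, control replicate 3 lying below 2 of the KO libraries. The means were 141 ± 22.4 and 123 ± 10.95 CPM (SD, n = 3), and the log2 fold change was −0.20 (SE 0.141, 95% interval −0.52 to 0.12, edgeR adjusted p = 0.274). Without control replicate 3 the change was −0.38 and was called (edgeR adjusted p = 0.0419). Of its 50-base stretches 3.95% occur in another gene, mainly the pseudogene Trp53-ps.

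The inhibitors did not move together. Mdm2, the ubiquitin ligase that is itself a p53 target (chr10:117688875-117710758, minus strand), held 129, 136 and 124 CPM in the control replicates and 149, 148 and 155 CPM in the KO replicates. Every KO library was above every control library, by a margin that did not pass the test across genes. The means were 130 ± 5.93 and 151 ± 3.96 CPM (SD, n = 3; log2 fold change 0.22 ± 0.10 as SE; 95% interval −0.010 to 0.44, edgeR adjusted p = 0.106). Scaled by library size only, Mdm2 was called (0.30, edgeR adjusted p = 0.0327). That scaling also moved the median log2 fold change over all tested genes from 0.013 to 0.10. Without control replicate 3 the change of Mdm2 was 0.13.

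Mdm4, which binds and masks p53 without being an efficient ligase on its own (chr1:132959484-133030561, minus strand), held 199, 141 and 210 CPM in control and 141, 122 and 126 CPM in KO. KO libraries lay below all control libraries, but control replicate 2 (141.2 CPM) and KO replicate 1 (141.1 CPM) nearly coincided. The means were 183 ± 37.0 and 130 ± 10.2 CPM (SD, n = 3; log2 fold change −0.50 ± 0.159 as SE; edgeR adjusted p = 0.02995). This call was lost without control replicate 1 (−0.50, adjusted p = 0.0598), KO replicate 2 (−0.46, 0.110) or KO replicate 3 (−0.48, 0.0845). It was also lost when only library size was used for scaling (−0.42, edgeR adjusted p = 0.0670) and with replicates 1 and 2 alone (−0.37, 0.103). Without control replicate 2 the fall was larger, −0.67. The gene model of Mdm4 is long, 14.8 kb of exons over 14 transcripts, and 7.31% of its stretches occur in other genes, mainly Mdm4-ps.

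Ratios of counts within a library, which do not depend on scaling, set the inhibitors and p21 against Trp53. Mdm2 counts were 0.883, 0.845 and 1.06 times Trp53 counts in control replicates 1, 2 and 3 and 1.11, 1.32 and 1.26 times in KO. The groups did not overlap, and the mean log2 ratio was −0.11 ± 0.175 for control and 0.30 ± 0.127 for KO libraries (SD, n = 3; difference 0.41, exact permutation test, two-sided, p = 0.1, 0.15 adjusted over 3 ratios). The smallest p that 3 libraries against 3 allow is 0.1. Cdkn1a counts were 2.15, 1.93 and 2.48 times those of Trp53 in control and 2.92, 3.52 and 3.89 times in KO, again without overlap (difference in log2 ratio 0.65, exact permutation test, p = 0.1, adjusted 0.15). Mdm4 counts were 1.36, 0.879 and 1.80 times those of Trp53 in control and 1.05, 1.09 and 1.02 times in KO (difference −0.29, exact permutation test, p = 0.4, adjusted 0.4). The KO ratios of Mdm4 fell inside the control range, which was wide. These ratios compare libraries and not the levels of the transcripts, whose lengths differ.

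**Figure D2:**
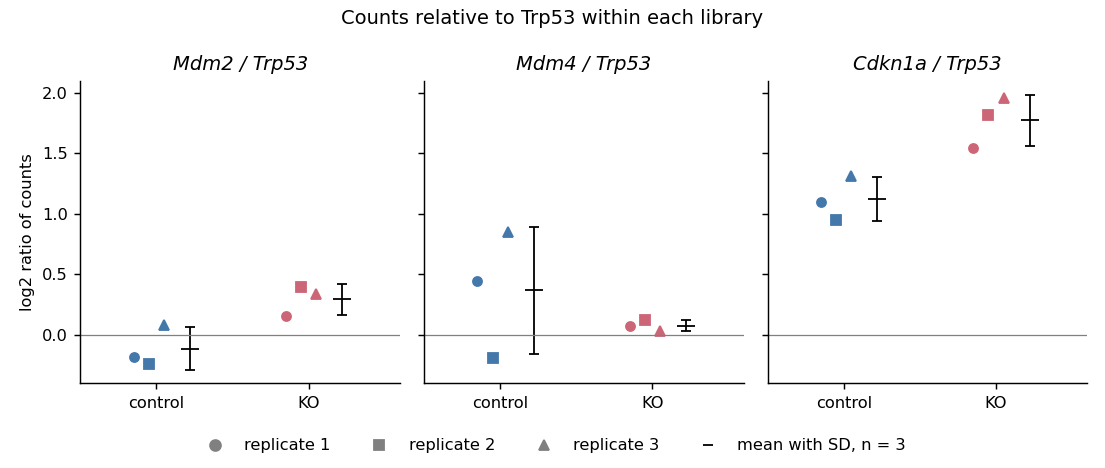
Log2 ratio of Mdm2, Mdm4 and Cdkn1a counts to Trp53 counts within each library (y axis) in control and KO (x axis); symbols mark replicate numbers and bars the mean with SD. The KO libraries lie above all control libraries for Mdm2 and Cdkn1a, and inside the control range for Mdm4.

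Cdkn1a and Ccng1, the pair whose promoter windows hold the matches shown above, both rose. Phlda3, whose window held no match, rose too (below), and a link between match and rise was not tested. Cdkn1a encodes p21, which inhibits cyclin-dependent kinases and arrests the cell cycle (chr17:29090976-29100727, plus strand). It held 314, 310 and 290 CPM in the control replicates and 391, 395 and 478 CPM in the KO replicates, without overlap. The means were 304 ± 12.96 and 421 ± 49.3 CPM (SD, n = 3; log2 fold change 0.47 ± 0.125 as SE; edgeR adjusted p = 0.0146). The call was lost without control replicate 1 (0.42, adjusted p = 0.0838), control replicate 3 (0.38, 0.0640) or KO replicate 3 (0.37, 0.0664), and with replicates 1 and 2 alone (0.33, 0.0820). A transcript on the opposite strand, AC167363.2, overlaps 7.68% of the exonic bases of Cdkn1a, and the strand setting of the counting is not given in the sources used here. Trp53cor1, the noncoding RNA that p53 induces beside Cdkn1a, was named after its values were seen. It held 2.61, 1.24 and 5.94 CPM in control and 5.39, 6.89 and 8.54 CPM in KO (log2 fold change 1.08, SE 0.499, edgeR adjusted p = 0.107). It was called with the replicate block (1.33, edgeR adjusted p = 0.0134), by DESeq2 (1.09, adjusted p = 0.0399), without control replicate 3 (1.87, 0.00231) and with replicates 1 and 2 alone (1.75, 0.00480), and the change was 0.65 without control replicate 2.

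Ccng1 encodes cyclin G1, which brings a phosphatase to Mdm2 (chr11:40748552-40755311, minus strand). It held 345, 378 and 384 CPM in the control replicates and 674, 698 and 672 CPM in the KO replicates. The KO libraries differed among themselves by far less than they stood above the control libraries. The means were 369 ± 21.4 and 681 ± 14.5 CPM (SD, n = 3; log2 fold change 0.89 ± 0.113 as SE; edgeR adjusted p = 0.000616), and the change lay between 0.77 and 0.97 over 15 other settings, called in each. None of its stretches occurs in another gene.

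Zmat3 and Phlda3 rose as well. Zmat3 encodes a zinc finger protein that binds RNA (chr3:32334792-32366014, minus strand), and held 134, 108 and 158 CPM in control and 210, 174 and 217 CPM in KO. The means were 133 ± 24.6 and 200.1 ± 23.3 CPM (SD, n = 3; log2 fold change 0.59 ± 0.158 as SE; edgeR adjusted p = 0.0153), a call lost without control replicate 1 (0.53, adjusted p = 0.0606) or KO replicate 3 (0.53, 0.0529). Phlda3, whose protein is a small pleckstrin homology domain that competes with the kinase Akt for membrane lipids (chr1:135766119-135769136, plus strand), held 8.88, 10.7 and 11.1 CPM in control and 18.4, 18.1 and 23.5 CPM in KO. All KO libraries lay above all control libraries. The means were 10.2 ± 1.19 and 20.0004 ± 3.07 CPM (SD, n = 3; log2 fold change 0.96 ± 0.172 as SE; edgeR adjusted p = 0.00257), called in all 15 other settings.

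Trp53inp1 showed the largest change of the 10 genes. Its protein is a stress-induced cofactor of p53 that also acts in autophagy (chr4:11156431-11174379, plus strand). It held 81.04, 84.1 and 172 CPM in control replicates 1, 2 and 3 and 326, 411 and 299 CPM in KO replicates 1, 2 and 3. Control replicate 3 was about as far above its companions as their own level, yet below every KO library. The means were 112 ± 51.6 and 345 ± 58.7 CPM (SD, n = 3; log2 fold change 1.62 ± 0.287 as SE; edgeR adjusted p = 0.00245). Between libraries of equal replicate number the log2 differences were 2.01, 2.29 and 0.80. With replicates 1 and 2 of both groups alone the fold change was 2.15, and it was called in all 15 other settings.

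Aen encodes a nuclease that enters the nucleus and promotes DNA fragmentation in apoptosis (chr7:78895854-78911209, plus strand). It held 41.1, 39.05 and 34.2 CPM in the control replicates and 65.4, 52.6 and 48.6 CPM in the KO replicates, without overlap. The means were 38.1 ± 3.55 and 55.5 ± 8.77 CPM (SD, n = 3; log2 fold change 0.54 ± 0.145 as SE; edgeR adjusted p = 0.0148), a call lost without control replicate 1 (0.53, adjusted p = 0.0610) or KO replicate 1 (0.40, 0.0553). Eda2r, the X-linked receptor for an ectodysplasin isoform (chrX:97333840-97377216, minus strand), was scarcely detected, with 9, 18 and 33 counts in control and 19, 32 and 23 counts in KO. These correspond to 0.547, 0.371 and 0.784 CPM and to 0.721, 0.855 and 1.17 CPM, and the groups overlapped (log2 fold change 0.67, SE 0.424, 95% interval −0.29 to 1.64, edgeR adjusted p = 0.222).

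**Figure D3:**
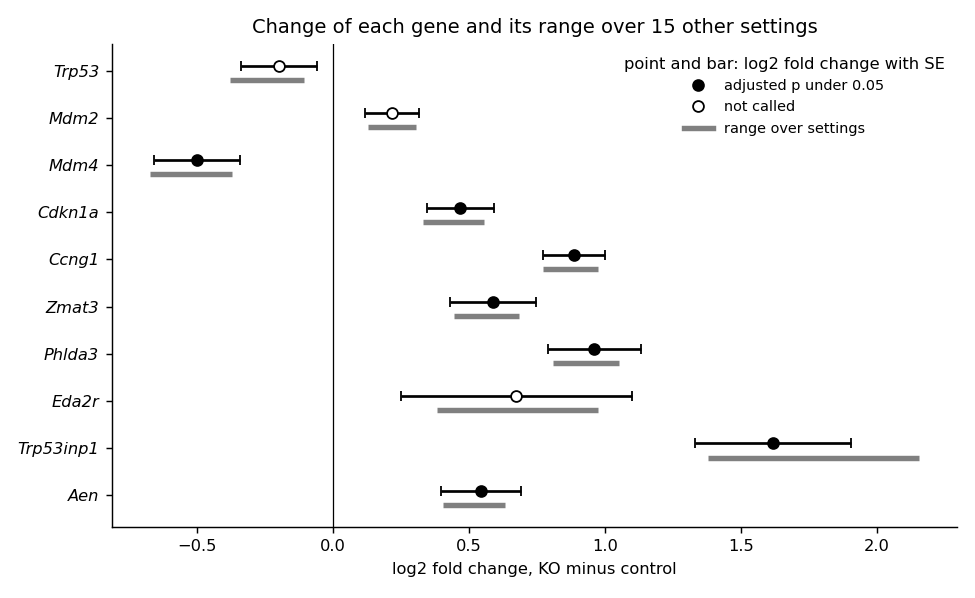
Log2 fold change of each gene, KO minus control (x axis), with its SE as a bar; filled points had an edgeR adjusted p under 0.05 and open points did not. Gray bars give the range over 15 other settings, none of which turns the sign of any of the 10 genes; Trp53inp1 runs from 1.38 to 2.15 and Mdm4 from −0.67 to −0.37.

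Levels of different genes were compared per kilobase of exon, as RPKM. In control the order was Ccng1 (105.05 RPKM), Cdkn1a (85.7), Trp53 (34.9), Mdm2 (25.5), Trp53inp1 (17.4), Mdm4 (12.4), Zmat3 (11.7), Aen (6.57), Phlda3 (6.56) and Eda2r (0.0963). Libraries of neighbouring genes overlapped for Mdm2 with Trp53inp1, Trp53inp1 with Mdm4, Mdm4 with Zmat3, and Aen with Phlda3. In KO, Ccng1 (194) and Cdkn1a (119) led again. Trp53inp1 (53.3 RPKM) had rank 3 in KO against rank 5 in control, above Trp53 (30.4) and Mdm2 (29.6), whose KO libraries overlapped. Mdm4 (8.75) had rank 9, overlapping Aen (9.57), with Zmat3 (17.5) and Phlda3 (12.8) above both and Eda2r (0.155) last. Exon lengths came from gene models and not from the isoforms expressed, so these levels are approximate.

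Other regulators of p53 moved in both directions. Of 20 listed 19 were tested, 6 fell, 3 rose and 10 did not pass. Of all tested genes 22.9% were called lower and 23.2% higher. The median log2 fold change of the regulators was −0.20 against 0.013 over all tested genes. Cdkn2a, whose Arf product inhibits Mdm2, was at or near 0 in all libraries and was not tested. The largest falls were those of Chek2 (21.8 ± 0.659 to 6.83 ± 2.42 CPM, log2 fold change −1.67, SE 0.247, edgeR adjusted p = 0.00115), Atr (87.7 ± 6.81 to 28.0 ± 6.51 CPM, −1.65, adjusted p = 0.000258) and Chek1 (52.2 ± 10.8 to 21.7 ± 8.31 CPM, −1.26, adjusted p = 0.00526). The other kinases of the list were also called lower and were named after their values were seen. They were Atm (109 ± 28.6 to 47.9 ± 9.06 CPM, −1.19, edgeR adjusted p = 0.00207), Prkdc (−1.01, adjusted p = 0.000688) and Hipk2 (159 ± 47.9 to 72.5 ± 9.69 CPM, −1.13, adjusted p = 0.00351). Sirt1, which deacetylates p53, rose from 36.4 ± 2.95 to 70.6 ± 6.99 CPM (0.96, edgeR adjusted p = 0.000673). Rchy1, another p53 ubiquitin ligase, rose by 0.47 (edgeR adjusted p = 0.0105), a call lost without control replicate 1 (0.34, 0.0857) or KO replicate 2 (0.43, 0.0516). Ep300, an acetyltransferase and coactivator, rose by 0.38 (edgeR adjusted p = 0.0417), a call that held in 1 of the 6 fits with a library left out, the one without control replicate 3; the other 5 gave 0.28 to 0.41. Ep300 also lost its call with upper-quartile scaling (0.36, edgeR adjusted p = 0.0698) and with no filter on low counts (0.37, 0.0540). Without control replicate 1, and likewise without KO replicate 2, 1 regulator was called higher.

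Other p53 targets for arrest, repair and metabolism moved in both directions. Of 24 listed genes 22 were tested, 11 rose, 3 fell and 8 did not pass, with a median log2 fold change of 0.57. Over all tested genes 23.2% were called higher and 22.9% lower, with a median of 0.013. The largest rises were those of Btg2, an antiproliferative gene (55.0 ± 1.07 to 331 ± 55.4 CPM, 2.59, SE 0.144, edgeR adjusted p = 3.9e-05), Gadd45a, a stress sensor that binds PCNA (9.18 ± 2.36 to 26.7 ± 3.64 CPM, 1.55, adjusted p = 0.000932), and Dcxr, a carbonyl reductase (4.43 ± 1.03 to 12.5 ± 3.36 CPM, 1.50, adjusted p = 0.00251). The 3 that fell were Ckap2 (−1.26, edgeR adjusted p = 0.00201) and Gtse1 (−0.57, adjusted p = 0.0405), microtubule proteins whose transcripts also follow the cell cycle, and Ddb2, a damage recognition factor (−0.90, adjusted p = 0.0185). The call of Ddb2 was lost without KO replicate 1 (−0.80, 0.0538) or KO replicate 3 (−0.90, 0.0502), and with replicates 1 and 2 alone (−0.68, 0.0679). Gtse1 lost its call without control replicate 1 or 2 and without KO replicate 2 or 3, with values of −0.61, −0.48, −0.44 and −0.48. Its call was also lost with library size only (−0.48, edgeR adjusted p = 0.0690). Without control replicate 1, 7 genes of the list were called higher, and without KO replicate 3, 1 was called lower.

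Among 10 apoptotic p53 targets, all tested, 4 rose, 2 fell and 4 did not pass (median log2 fold change 0.26). For comparison, 23.2% of all tested genes were called higher and 22.9% lower (median 0.013). Fas, the death receptor, rose from 19.5 ± 6.31 to 73.6 ± 18.5 CPM (1.91, edgeR adjusted p = 0.000730), and Pmaip1, which encodes Noxa, and Perp, a membrane protein, rose by 1.15 and 1.14 (edgeR adjusted p = 0.00393 and 0.000894). Aifm2 fell by 1.92 on the log2 scale (edgeR adjusted p = 0.00160) and Siva1 by 0.98 (adjusted p = 0.0143), the latter a call lost without control replicate 2 (−0.72, 0.0517) or KO replicate 2 (−0.94, 0.0590), each of which left 1 lower call.

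Relatives of the 10 genes that are not classic p53 targets were set beside them. Of 14 paralogs 8 were tested, 4 rose, 1 fell and 3 did not pass, and the median log2 fold change was 0.53. The shares over all tested genes were 23.2% higher and 22.9% lower, and the median was 0.013. Trp53inp2, the relative of Trp53inp1 that acts in autophagy, rose from 11.2 ± 2.72 to 37.7 ± 1.42 CPM (1.77, edgeR adjusted p = 0.000283). Phlda1, related to Phlda3, rose from 4.41 ± 1.26 to 17.5 ± 2.83 CPM (1.999, adjusted p = 0.000580), and Isg20, an exonuclease related to Aen and an interferon-stimulated gene, from 0.785 ± 0.503 to 5.94 ± 1.56 CPM (2.83, adjusted p = 0.00165). In contrast to Ccng1, its relative Ccng2 fell from 94.8 ± 8.22 to 61.2 ± 9.48 CPM (−0.63, SE 0.138, edgeR adjusted p = 0.00611). Cdkn1b, which encodes p27, was named after its values were seen: it held 120 ± 21.2 and 94.2 ± 12.5 CPM (−0.35, edgeR adjusted p = 0.0948) and was called lower with the replicate block (adjusted p = 0.0469) and without control replicate 1 (−0.50, 0.0445), which brought the lower calls to 2. Without control replicate 3 there were also 2, Isg20l2 (−0.38, edgeR adjusted p = 0.0346; named after its value was seen) being the second. Trp63 and Trp73, the relatives of Trp53, were at or near 0 in every library, Trp63 without a count.

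Cell cycle genes that are known to be repressed through p53, p21 and the DREAM complex, a repressor of cell cycle promoters, were lower throughout. All 20 were tested and all 20 fell, 19 without overlap between the groups. The median log2 fold change was −1.26, with a range of −1.67 to −0.73. Over all tested genes 22.9% were called lower, and in 28% KO libraries lay below every control library. Whether p53 took part in the fall of these genes was not tested. The largest falls were those of the mitotic kinase genes Bub1 (107 ± 17.4 to 33.7 ± 13.8 CPM, −1.67, edgeR adjusted p = 0.00168), Aurkb (107 ± 16.9 to 33.8 ± 9.54 CPM, −1.66, adjusted p = 0.000584) and Cdk1 (144 ± 40.3 to 50.3 ± 15.9 CPM, −1.52, adjusted p = 0.00213). With 1 library left out, 17 to 20 of them were called.

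**Figure D4:**
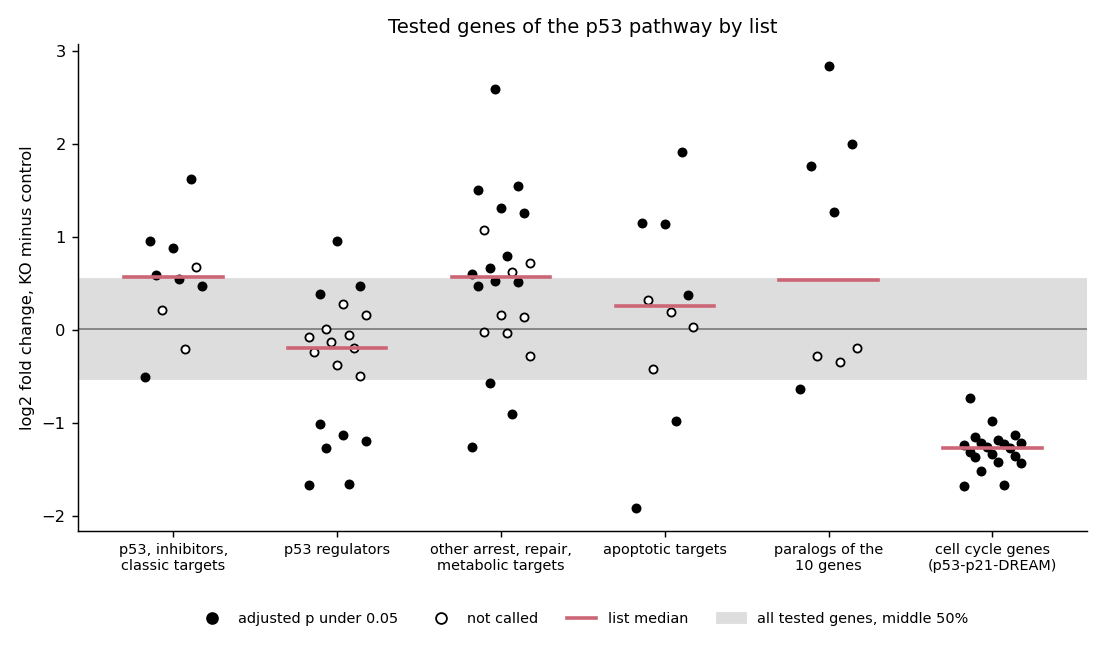
Log2 fold change, KO minus control (y axis), of each tested gene in 6 lists (x axis); filled points had an edgeR adjusted p under 0.05, red lines are list medians, and the gray band spans the middle 50% of all tested genes, −0.52 to 0.55, with their median of 0.013. The 20 cell cycle genes all lie below the band. Of the 19 tested p53 regulators, Sirt1 alone lies above it, the 6 called lower lie below it and the others lie inside it.

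The genes whose log2 CPM followed that of Trp53 or Cdkn1a most closely over the 6 libraries were listed among 9810 genes of 5 CPM or more on average. For Trp53 they were Apex1, Fadd and Klf16 (Pearson r = 0.996, 0.995 and 0.993) and for Cdkn1a they were Rela, Dlgap4 and Mgat1 (0.995, 0.993 and 0.993). With 6 libraries that share the 2 groups and so many genes, such values are a description of these libraries.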

How the data were processed

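The 10 genes and all gene lists were chosen with earlier results of these data known. Per the submitters' processing notes, STAR, featureCounts and DESeq2 were used with build mm10; annotation, versions and strand setting are not given in the sources used here. The authors deposited 1 table of raw counts, whole numbers by gene symbol. Counts of KO and control libraries were compared with edgeR 4.0.16 (quasi-likelihood test, R 4.3.3), with TMM factors, filterByExpr by group and Benjamini-Hochberg adjustment over all tested genes. A gene was called at an adjusted p under 0.05. The procedure was run on simulated counts with a common dispersion and far fewer changed genes than the 46.1% called here. That run cannot tell how often calls are wrong in these data. CPM values used TMM-scaled library totals. SE is the absolute log2 fold change over the square root of F. DESeq2 1.42.0 was an alternative. Gene models came from GENCODE M21 (GRCm38) and held all 10 genes; the 50-base stretches of each were compared with all other transcripts. A planned search for p53 elements over a wider region around gene starts, which needs a genome, was replaced by the promoter windows, a choice made after the count table was seen. Named list genes are the 3 largest increases and 3 largest decreases among called genes with at least 1 CPM in a group. Deviations from group means correlated by 0.27, 0.13 and 0.379 between libraries of equal replicate number. Between libraries of unequal number they correlated by −0.39 to 0.204, the latter above the value for replicate 2. The numbers come from the sample titles, and whether they pair the libraries was not settled. The main fit was therefore unpaired, with the replicate block as an alternative. Intervals cover the spread between libraries; reads have no stated molecular identifiers. A marker gene and the genes most like Mdm2 are not reported here.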

Additional observations from a re-analysis of the deposited data

How the results depend on the processing

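Alternatives were scaling by DESeq2 size factors, by upper quartiles, by library size only or by TMM without the 50 most counted genes, no filter, a mean count of at least 10, the DESeq2 test, the replicate block, replicates 1 and 2 alone, and leaving out each library. No sign of the 10 genes turned under any of the 15. The count of all called genes, 6574, was 7628 with the replicate block and ran from 4460 to 7050 with a library left out. Of the 10 genes, 3 to 6 were called higher and 0 to 2 lower with a library left out, and 0 lower with replicates 1 and 2 alone. With library size only, 7 were called higher, Mdm2 among them, and 0 lower. That scaling put the median log2 fold change over all tested genes at 0.10, against 0.013 in the main fit. The replicate block changed no call among the 10 genes. With a library left out, regulators called higher numbered 1 to 3, other arrest, repair and metabolic targets 7 to 13 higher and 1 to 3 lower, apoptotic targets 1 to 3 lower, and paralogs 1 to 2 lower. With the replicate block, regulators called lower numbered 8 (6 without it), other targets called higher 14 (11 without it, 14 by the DESeq2 test), apoptotic targets called lower 3 (2 without it) and paralogs called lower 2 (1 without it); the block left the other list counts as they were. The cause of these shifts was not tested, and fits with a library left out also rest on fewer libraries. The ratios to Trp53 kept their direction, that of Mdm4 from −0.57 to −0.05 with a library left out; pairing by replicate number leaves the mean differences (0.41 for Mdm2, −0.29 for Mdm4 and 0.65 for Cdkn1a) as they are by construction, and the exact permutation p becomes 0.25 for Mdm2 and Cdkn1a and 0.5 for Mdm4, 0.25 being the smallest that 3 pairs allow. Eda2r rests on 9 to 33 counts in each library, and its interval is wide.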
